A study of Rattus norvegicus with 14 samples.

Results

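Macrophage marker genes were followed in rat liver from normal tissue through a regenerating, carcinogen-exposed liver to preneoplastic foci with and without earlier rapamycin. Of the 9 genes, Marco, Clec4f, Vsig4, Cd163 and Cd5l mark Kupffer cells. Mmp12 was listed as a marker of recruited or activated macrophages, and Cd68, C1qa and Csf1r are expressed by most macrophages. A gene was represented by the probe set whose only gene symbol in the platform annotation was that gene, and all 9 were measured, each by 1 probe set, among 14497 genes with such a probe set. Expression was measured on Affymetrix Rat Gene ST 1.0 arrays, which probe the whole length of a transcript, in regions taken by laser capture microdissection from formalin-fixed, paraffin-embedded liver of male F344 rats, an inbred strain. The 12 animals formed 4 groups of 3. Rapamycin foci and placebo foci were GSTP-positive persistent focal lesions, GSTP being the placental glutathione S-transferase that marks altered hepatocytes in this species. Those rats received 200 mg/kg diethylnitrosamine (DEN), a liver carcinogen, on day 1, a pellet with 2.5 mg of 2-acetylaminofluorene (AAF), which blocks hepatocyte division, released over 14 days from day 14, and a partial hepatectomy (PH) on day 21. At the hepatectomy they also received a pellet lasting 21 days that held either placebo or rapamycin, an inhibitor of the growth kinase mTOR, at 2.5 mg/kg per day, and they were killed on day 70, so that the pellet had run out before the tissue was taken. AAF/PH rats had no DEN, received the same AAF pellet on day 1 and the hepatectomy on day 7, and were killed on day 14, with the captured tissue labelled as oval cells, the small progenitor-like cells that appear under this treatment. Normal liver came from unmanipulated adult rats (Adult Liver in the labels). The foci groups thus differed from normal liver and from AAF/PH liver in carcinogen, time and captured structure together, and from each other in the pellet.

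Kupffer cells are the resident macrophages of the liver: they sit in the sinusoids and clear bacteria, particles, haemoglobin and immune complexes from blood through scavenger and complement receptors. After injury, blood monocytes enter the tissue and become macrophages that carry the general macrophage proteins but, at first, few Kupffer cell receptors, and that can secrete matrix-degrading proteases. In captured tissue, fewer cells of a type and less RNA per cell cannot be told apart.

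The arrays of rapamycin animal 3 stood apart from the rest. That animal was run on 3 arrays, a pair from the same RNA and the last from a second laser capture, and these were averaged into 1 value. The interquartile range of log2 intensity over probe sets was 1.90 to 2.02 on those arrays and 2.24 to 2.76 on the 11 others, and the series' own clustering set the same animal apart. Test results that move without it are given both ways, while correlations were computed only with it. Gstp1, the gene of the protein by which foci were chosen and therefore no finding, averaged an intensity of 3117 in rapamycin foci, 4023 in placebo foci, 182 in AAF/PH liver and 110 in normal liver.

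Placebo foci held lower Marco and Vsig4 and higher Mmp12 than normal liver, and rapamycin foci held lower Marco, Clec4f, Vsig4 and Cd163 and higher Mmp12. In AAF/PH liver Vsig4 was lower and Mmp12 higher than in normal liver. The general macrophage genes Cd68, C1qa and Csf1r were not called in any comparison, which does not show that they were level. The test was limma's moderated linear model over all 12 animals, and a gene was called at a Benjamini-Hochberg adjusted p under 0.05 over the 14497 genes. The 9 genes were chosen with earlier results of these data known, so the shares of all genes are no independent yardstick for their counts. Of the 9 genes, 1 was called higher and 4 lower in rapamycin foci against normal liver, where 6.53% of all genes were called. In placebo foci against normal liver 1 was higher and 2 were lower, against 8.22% of all genes. In AAF/PH liver against normal liver 1 was higher and 1 lower, against 20.0% of all genes, so that this count stands near the background. Between rapamycin foci and AAF/PH liver 1 was called, lower, against 4.01% of all genes, and between placebo foci and AAF/PH liver 1 was higher and 1 lower, against 4.19%. Between rapamycin foci and placebo foci 0 of the 9 were called, and limma called 0% of all genes. The comparisons against normal liver share its 3 animals, and those against AAF/PH liver share theirs. Groups did not overlap for 6 of the 9 genes in rapamycin foci, 4 in placebo foci and 5 in AAF/PH liver against normal liver. Over all genes the shares were 29.7%, 30.5% and 49.6%. Against AAF/PH liver the counts were 5 in rapamycin foci and 4 in placebo foci, with shares of 13.6% and 25.7%. Between the foci groups the count was 2 and the share 6.04%. Lack of overlap is given below as a description and is no result by itself.

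**Figure D1:**
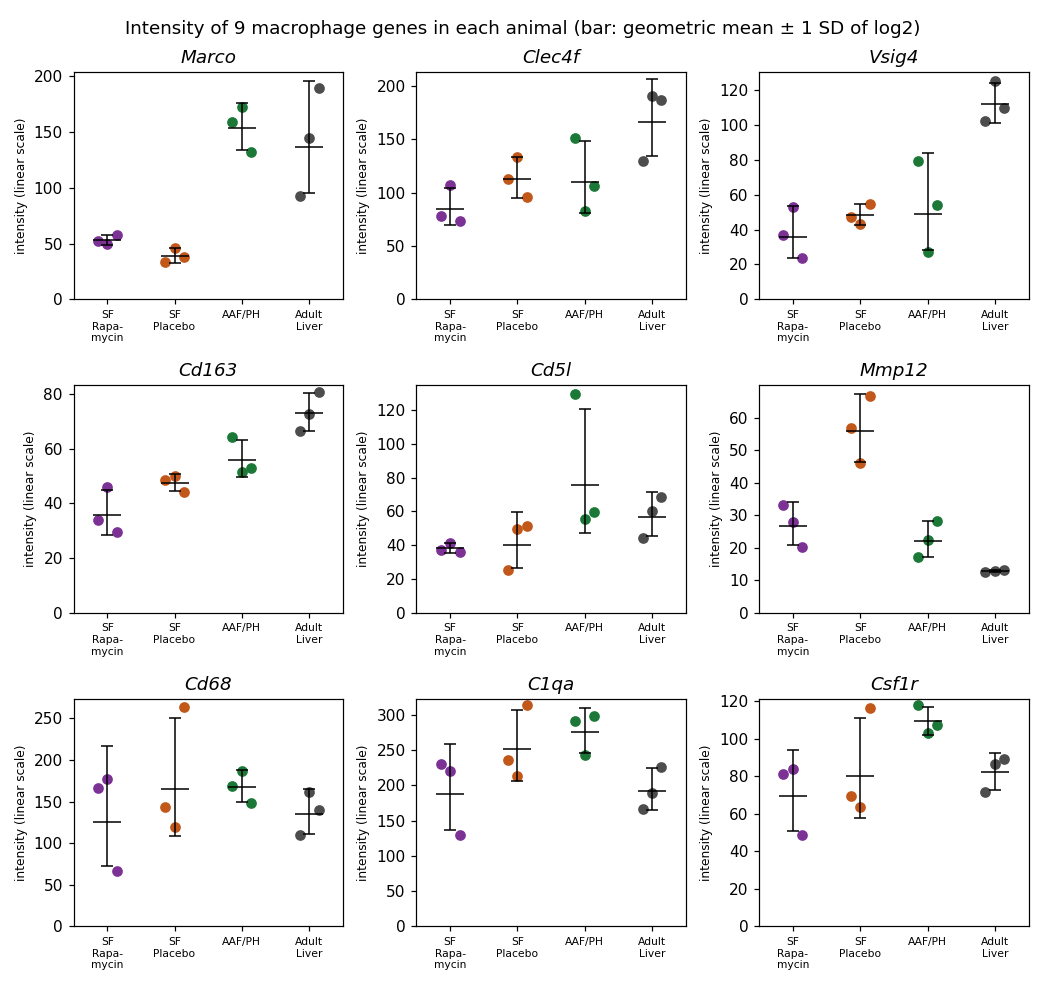
Intensity of each of the 9 genes (linear scale from 0) in the 12 animals, in groups from rapamycin foci at the left to normal liver at the right. Points are animals, and the horizontal bar and whiskers are the geometric mean ± 1 SD of log2. Marco lies at 33.2 to 58.0 in the 6 foci animals and at 93.0 to 190 in the other 6, and Mmp12 is highest in placebo foci.

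Marco, a scavenger receptor that binds bacteria and particles, gave the clearest separation of foci from other liver. Its intensity was 52.4, 49.2 and 58.0 in rapamycin animals 1, 2 and 3 and 33.2, 45.9 and 38.2 in placebo animals 1, 2 and 3. It was 159, 172 and 132 in AAF/PH animals and 93.0, 145 and 190 in normal animals. Every foci animal was below every other animal, and AAF/PH and normal liver overlapped. On the log2 scale Marco was lower than in normal liver by 1.82 in placebo foci (difference -1.82 ± 0.23 SE, adjusted p = 0.000224 in limma), a 3.53-fold difference, and the difference in rapamycin foci was -1.37 ± 0.23 (adjusted p = 0.0042). Against AAF/PH liver the differences were -1.53 ± 0.23 in rapamycin foci and -1.99 ± 0.23 in placebo foci (adjusted p = 0.00137 and 0.000156 in limma). These 4 calls were kept under all 23 alternative settings. The 3 arrays of rapamycin animal 3 read 54.6, 56.1 and 63.7, so the second laser capture gave a value like the first. AAF/PH liver differed from normal liver by 0.17 (95% interval -0.33 to 0.67, adjusted p = 0.616), and this turned to -0.11 without normal animal 1. The 3 rapamycin animals were above the 3 placebo animals, with a difference of 0.45 (95% interval -0.05 to 0.95) that was not called.

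The stretch around the annotated start of Marco and of Mmp12 is shown because these genes moved in opposite directions in foci, and that of Vsig4 because it was lower in all the other groups than in normal liver. The sequences are those of RefSeq on the rat assembly GRCr8, from 250 bases before to 50 bases after the start the table gives, read 5′ to 3′ on the strand of the gene. Marco is at chr13:34201206-34201505 on the minus strand, where the start used lies inside the annotated span of the gene, Mmp12 at chr8:12866402-12866701 on the plus strand and Vsig4 at chrX:65179659-65179958 on the minus strand. Capitals mark matches, on either strand, to 3 motifs: GAGGAA, the core bound by ETS factors such as the myeloid factor PU.1, TGCTGA, the half-site bound by MAF factors, and TGANTCA, the AP-1 site.
Marco: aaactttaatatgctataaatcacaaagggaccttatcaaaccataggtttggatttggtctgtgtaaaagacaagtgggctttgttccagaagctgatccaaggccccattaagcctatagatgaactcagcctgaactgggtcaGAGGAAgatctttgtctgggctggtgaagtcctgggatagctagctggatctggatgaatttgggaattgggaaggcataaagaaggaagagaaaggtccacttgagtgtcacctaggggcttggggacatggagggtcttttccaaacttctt
Mmp12: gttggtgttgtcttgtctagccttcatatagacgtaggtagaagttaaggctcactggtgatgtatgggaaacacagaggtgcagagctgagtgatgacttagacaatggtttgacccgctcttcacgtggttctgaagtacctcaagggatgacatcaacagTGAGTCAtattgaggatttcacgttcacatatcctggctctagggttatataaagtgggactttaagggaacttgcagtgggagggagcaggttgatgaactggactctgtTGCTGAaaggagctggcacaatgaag
Vsig4: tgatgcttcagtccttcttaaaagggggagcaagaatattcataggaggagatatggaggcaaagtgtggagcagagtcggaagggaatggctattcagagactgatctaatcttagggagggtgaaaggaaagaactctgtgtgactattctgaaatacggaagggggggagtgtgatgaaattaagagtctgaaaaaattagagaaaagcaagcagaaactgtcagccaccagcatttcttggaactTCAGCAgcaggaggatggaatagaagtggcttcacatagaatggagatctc
Marco holds 1 ETS core, whose first base is at -104 from the start, Mmp12 holds 1 AP-1 site at -87 and 1 MAF half-site at 24, and Vsig4 holds 1 MAF half-site at -1. All 9 genes had an entry in the promoter table. The ETS core was in 4 of the 9 stretches and in 27.5% of 27457 promoters of the same length, the MAF half-site in 5 of 9 and 18.6%, and the AP-1 site in 2 of 9 and 7.33%. The 3 motifs do not share letters at any match printed here, and a match is only a description of the letters.

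Vsig4, a complement receptor that captures C3b-coated particles, was lower than in normal liver in all other groups. Its intensity was 37.2, 52.8 and 23.6 in rapamycin foci, 47.3, 43.3 and 55.0 in placebo foci, 79.2, 27.4 and 54.3 in AAF/PH liver, and 102, 126 and 110 in normal liver. No treated animal reached the lowest normal animal, while rapamycin foci, placebo foci and AAF/PH liver overlapped. The log2 differences from normal liver were -1.64 ± 0.34 in rapamycin foci, -1.22 ± 0.34 in placebo foci and -1.19 ± 0.34 in AAF/PH liver (adjusted p = 0.0111, 0.0364 and 0.0212 in limma). The calls depended on single animals and on the scaling. The placebo call was lost without any 1 of the 3 normal or 3 placebo animals or without AAF/PH animal 3 (7 of 12 leave-outs, differences -1.31 to -1.13, adjusted p 0.0514 to 0.135). The AAF/PH call was lost without normal animal 1, 2 or 3 or AAF/PH animal 2 (differences -1.26 to -0.77, adjusted p 0.0567 to 0.109), and the rapamycin call without normal animal 3 (-1.66, adjusted p = 0.050). Quantile normalization ended the placebo and AAF/PH calls (-1.04 and -1.02, adjusted p = 0.111 and 0.0711), and centring the placebo call (-1.32, adjusted p = 0.0581). In rapamycin animal 3 the 3 arrays read 29.6, 12.8 and 34.7, so arrays of the same RNA differed for this gene. Without that animal the difference of rapamycin foci from normal liver was -1.34.

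Cd163, the receptor that takes up haemoglobin bound to haptoglobin and the ED2 antigen used to stain resident macrophages in rats, was lower in rapamycin foci. Its intensity was 33.9, 46.0 and 29.4 in rapamycin foci, 48.5, 50.2 and 44.1 in placebo foci, 64.2, 51.5 and 53.0 in AAF/PH liver, and 66.6, 72.6 and 80.6 in normal liver. All 9 animals of the other groups lay below all 3 normal animals, and both foci groups lay below AAF/PH liver. Against normal liver the log2 difference was -1.03 ± 0.19 in rapamycin foci (adjusted p = 0.00639 in limma), a 2.04-fold difference. Without rapamycin animal 3 it was -0.89. The call was kept in all 12 leave-outs and lost when the 2 groups were fitted alone (adjusted p = 0.0609). The difference from normal liver was -0.62 (95% interval -1.02 to -0.22, adjusted p = 0.0585) in placebo foci and -0.38 (95% interval -0.79 to 0.02, adjusted p = 0.158) in AAF/PH liver. The placebo difference passed the threshold without rapamycin animal 2 or 3 (-0.62 in both, adjusted p 0.0126 to 0.0318), animals that enter only through the shared spread. Rapamycin foci differed from AAF/PH liver by -0.65 (adjusted p = 0.0790), and by -0.83 without rapamycin animal 2 (adjusted p = 0.0275).

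Clec4f, the C-type lectin first described as the Kupffer cell receptor for galactose-ended glycoproteins, had intensities of 78.2, 108 and 73.3 in rapamycin foci, 112, 134 and 95.6 in placebo foci, 152, 83.1 and 106 in AAF/PH liver, and 130, 191 and 187 in normal liver. Rapamycin foci lay below normal liver without overlap, while placebo foci and AAF/PH liver each overlapped normal liver. The log2 difference from normal liver was -0.97 ± 0.25 in rapamycin foci (adjusted p = 0.0300 in limma), -0.56 (95% interval -1.09 to -0.04, adjusted p = 0.208) in placebo foci and -0.60 (95% interval -1.12 to -0.07, adjusted p = 0.0979) in AAF/PH liver. The rapamycin call was lost without any 1 of the 3 normal animals or rapamycin animal 1 (-1.15 to -0.87, adjusted p 0.0512 to 0.138), with quantile normalization (-0.66, adjusted p = 0.134) and with the 2 groups fitted alone (adjusted p = 0.091). Without rapamycin animal 3 the rapamycin difference was -0.86. The AAF/PH difference was called without AAF/PH animal 1 or rapamycin animal 3 (-0.83 and -0.60, adjusted p 0.0411 to 0.0421). That Clec4f was called in rapamycin and not in placebo foci does not show that the foci differed: the difference between them was -0.41 (95% interval -0.93 to 0.12, adjusted p = 0.985).

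Cd5l, a secreted protein of macrophages that slows their apoptosis, was not called in any comparison. Its intensity was 37.1, 41.4 and 36.0 in rapamycin foci, 25.0, 49.5 and 51.1 in placebo foci, 129, 55.7 and 59.5 in AAF/PH liver, and 44.2, 60.4 and 68.6 in normal liver. AAF/PH animal 1 stood far above the rest, and the AAF/PH difference from normal liver, 0.41, was 0.02 without it. Both foci groups lay below AAF/PH liver without overlap, with log2 differences of -0.98 in rapamycin foci and -0.92 in placebo foci (adjusted p = 0.132 and 0.157), and the second was called without rapamycin animal 3 (-0.92, adjusted p = 0.0497).

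Mmp12, macrophage elastase, which degrades elastin and other matrix proteins, was the member that was higher. Its intensity was 33.1, 28.0 and 20.4 in rapamycin foci, 56.7, 46.2 and 66.7 in placebo foci, 17.2, 22.3 and 28.1 in AAF/PH liver, and 12.4, 12.9 and 13.3 in normal liver. All 9 treated animals were above all 3 normal animals, placebo foci were above every other animal, and rapamycin foci and AAF/PH liver overlapped. Normal liver was dim for this probe set, at the 36.2 percentile of all probe sets. The files give no detection call, so the normal level may hold background. Against normal liver the log2 difference was 1.05 ± 0.22 in rapamycin foci, 2.12 ± 0.22 in placebo foci and 0.78 ± 0.22 in AAF/PH liver (adjusted p = 0.0136, 4.62e-05 and 0.0240 in limma). The placebo difference was a 4.35-fold one, and with the difference of 1.34 ± 0.22 from AAF/PH liver (adjusted p = 0.00258) it was kept under all 23 alternatives. The rapamycin call was lost without normal animal 1 or 3 (1.03 to 1.07, adjusted p 0.0582 to 0.0758), and the AAF/PH call without normal animal 1, 2 or 3 or AAF/PH animal 2 or 3 (0.61 to 0.80, adjusted p 0.0532 to 0.0991). Quantile normalization and centring each ended both calls (0.82 and 0.88 in rapamycin foci, adjusted p = 0.058 and 0.0592, and 0.56 and 0.59 in AAF/PH liver, adjusted p = 0.125 and 0.131). The rapamycin call was also lost with the 2 groups fitted alone (adjusted p = 0.0573). Without rapamycin animal 3 the rapamycin difference from normal liver was 1.24. Rapamycin foci differed from AAF/PH liver by 0.27 (95% interval -0.21 to 0.75, adjusted p = 0.776).

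Between the foci groups, which differed in the earlier pellet alone, Mmp12 had the largest difference of the 9 genes. Rapamycin foci were below placebo foci in all 3 animals, with a log2 difference of -1.07 ± 0.22 (95% interval -1.55 to -0.59), yet the adjusted p over all genes was 0.985. Of the 14497 genes 0 were called in this comparison, the lowest adjusted p of any gene was 0.512, and 483 genes (3.33%) had an unadjusted p under 0.05, among them 2 of the 9, Mmp12 and Cd163. Ordered by the size of the difference over all genes Mmp12 was at rank 32. Without rapamycin animal 3, which had the lowest Mmp12 of its group, the difference was -0.88 (adjusted p = 0.171), and over all alternatives it ran from -1.23 to -0.76. It was called under 1 of the 23, the fit with array quality weights (-0.76, adjusted p = 0.0111), which gives rapamycin animal 3 a low weight. The other 8 genes differed between rapamycin and placebo foci by -0.43 to 0.45, each with an adjusted p of 0.985 or above, and the 95% intervals reached as far as -1.15 for Cd68.

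**Figure D2:**
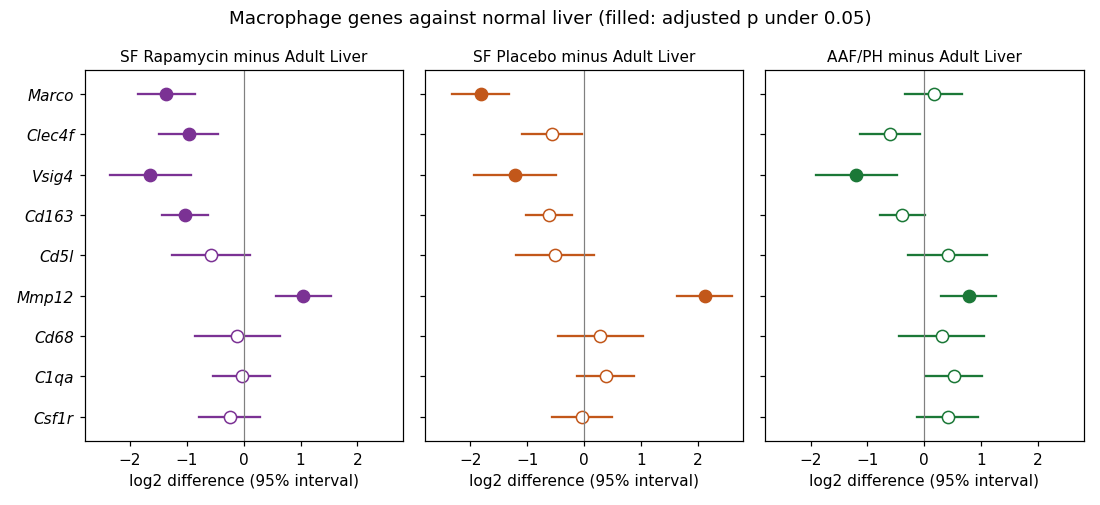
Log2 difference from normal liver (x axis) of the 9 genes (y axis) in rapamycin foci, placebo foci and AAF/PH liver, with 95% intervals from limma and filled symbols where the gene was called. The Kupffer cell genes lie left of 0 in both foci groups, Mmp12 lies right of 0 in all groups, and the intervals of Cd68, C1qa and Csf1r hold 0 in foci.

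Cd68, C1qa and Csf1r gave no call against normal liver, so the lower Kupffer cell genes in foci were not matched by a called fall in general macrophage genes. Cd68, a lysosomal glycoprotein and the ED1 antigen of rat macrophages, read 166, 177 and 66.1 in rapamycin foci, 143, 119 and 264 in placebo foci, 169, 187 and 149 in AAF/PH liver, and 109, 161 and 140 in normal liver. C1qa, a chain of the complement protein C1q that macrophages make, read 231, 221 and 130 in rapamycin foci, 236, 214 and 314 in placebo foci, 292, 243 and 299 in AAF/PH liver, and 167, 189 and 226 in normal liver. Csf1r, the receptor for the macrophage growth factors CSF-1 and IL-34, read 81.2, 84.1 and 48.6 in rapamycin foci, 69.6, 63.9 and 116 in placebo foci, 118, 103 and 107 in AAF/PH liver, and 71.6, 86.9 and 89.4 in normal liver. In all 3 genes rapamycin animal 3 was the lowest of the 12 animals and placebo animal 3 the highest of its group. The foci groups overlapped normal liver in each gene. Rapamycin foci differed from normal liver by -0.11 for Cd68, -0.04 for C1qa and -0.25 for Csf1r, and without rapamycin animal 3 by 0.34, 0.23 and 0.01. Placebo foci differed by 0.29, 0.38 and -0.03 (adjusted p 0.395 to 0.955 in limma). AAF/PH liver was above normal liver without overlap for C1qa (0.52, 95% interval 0.02 to 1.02, adjusted p = 0.126) and Csf1r (0.41, 95% interval -0.12 to 0.95, adjusted p = 0.247). In this comparison 49.6% of all genes did not overlap. The C1qa difference was called without rapamycin animal 3 (adjusted p = 0.0284). With quantile normalization both passed the threshold (0.99 for C1qa and 0.70 for Csf1r, adjusted p = 0.00038 and 0.0226), as did C1qa in placebo foci (0.61, adjusted p = 0.0228). Over the 23 alternatives C1qa was called in AAF/PH liver under 4 and Csf1r under 2. Rapamycin foci lay below AAF/PH liver without overlap for C1qa (-0.56, 95% interval -1.06 to -0.06, adjusted p = 0.288) and Csf1r (-0.66, 95% interval -1.19 to -0.13, adjusted p = 0.213), differences of -0.29 and -0.40 without rapamycin animal 3 and called with quantile normalization (-0.68 and -0.80, adjusted p = 0.0125 and 0.0214). A fall as large as that of Marco lies outside these 95% intervals in foci, which for rapamycin foci went no lower than -0.86 (Cd68). The point estimates of Vsig4 and Cd163 also lie outside, as does that of Clec4f in rapamycin foci. This leaves out the errors of those estimates. In placebo foci the 95% intervals of Vsig4 (-1.93 to -0.50) and Cd163 (-1.02 to -0.22) overlap that of Csf1r. In rapamycin foci those of Cd163 (-1.43 to -0.63) and Clec4f (-1.50 to -0.45) overlap that of Cd68. Differences between genes in the size of the fall were not tested. Smaller falls do not all lie outside. In placebo foci those of Clec4f (-0.56) and Cd5l (-0.51) lie within the interval of Csf1r (low end -0.57). In rapamycin foci that of Cd5l (-0.57) lies within those of Cd68 and Csf1r (low end -0.78).

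The Kupffer cell genes and the general macrophage genes were set side by side in each animal as the mean log2 difference from the normal mean, as a description with no test. The 5 Kupffer cell genes averaged -1.16, -0.86 and -1.33 in rapamycin foci, -1.13, -0.80 and -0.91 in placebo foci, 0.12, -0.65 and -0.43 in AAF/PH liver and -0.31, 0.10 and 0.20 in normal liver. The 3 general genes averaged 0.18, 0.21 and -0.79 in rapamycin foci, 0.04, -0.13 and 0.72 in placebo foci, 0.48, 0.38 and 0.39 in AAF/PH liver and -0.24, 0.10 and 0.14 in normal liver. The Kupffer cell mean was below the general mean in all 9 animals outside normal liver, by 0.54 to 1.34 in rapamycin foci, 0.67 to 1.63 in placebo foci and 0.36 to 1.02 in AAF/PH liver, and within 0.07 of it in normal animals, from whose mean the values are taken. In rapamycin animal 3 both means were low.

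**Figure D3:**
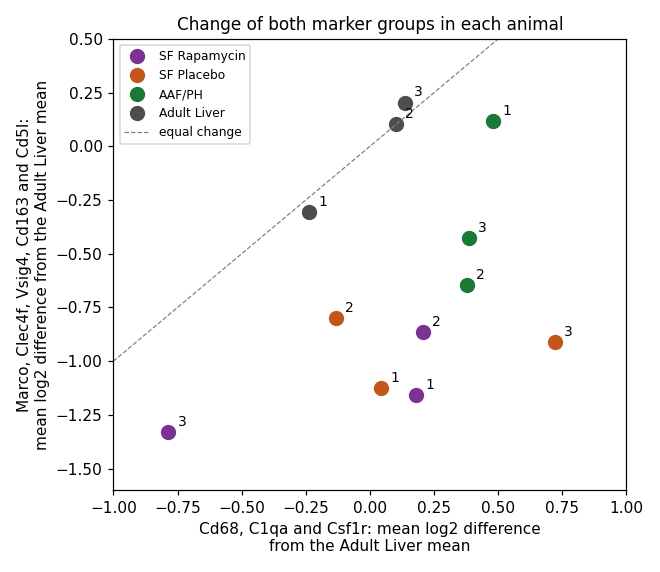
Mean log2 difference from the normal mean of the 5 Kupffer cell genes (y axis) against that of the 3 general macrophage genes (x axis), 1 numbered point per animal, with a dashed line where both are equal. The 6 foci animals lie at -1.33 to -0.80 on the y axis, and rapamycin animal 3 is alone at -0.79 on the x axis.

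Over the 12 animals the 9 genes formed groups that varied together, described here by Pearson's r of log2 intensity, with no test, since the points share groups and the array of rapamycin animal 3. The value within groups, from deviations about the group means, is given where it is much lower, since r over all animals then mostly restates the group differences. Clec4f, Cd163 and Vsig4 correlated at 0.86 to 0.90 with each other. Cd68, C1qa and Csf1r correlated at 0.83 to 0.86. But rapamycin animal 3 was the lowest of the 12 animals in each gene of both these sets. No correlation was computed without it. Marco went against Mmp12 (-0.79, and -0.26 within groups) and with Cd5l (0.73, and 0.49 within groups). Among all genes, those most like Marco over the 12 animals were Slc1a2 (0.94), a glutamate transporter, Crot (0.93), a peroxisomal acyltransferase, and Polr3gl (0.93), with 0.46, -0.11 and 0.15 within groups. Those most like Mmp12 were Prtfdc1 (0.96), the collagen receptor Ddr1 (0.96) and Bex1 (0.95). With the general macrophage genes Mmp12 correlated at 0.44 (C1qa), 0.35 (Cd68) and 0.02 (Csf1r), and at 0.70, 0.65 and 0.62 within groups. Vsig4 was most like Pcdh1, Prkaca and Fam117b (0.93 to 0.94), and Clec4f most like Cd163, Vsig4 and Cyp2d4 (0.85 to 0.90). Cd163 was most like Asgr1, a subunit of the hepatocyte asialoglycoprotein receptor, Clec4f and Fcgrt, all at 0.90, with Fcgrt at 0.42 within groups. Cd5l was most like Adam23, Wdr5b and Upf3a (0.84 to 0.87). Cd68 was most like Fcer1g (0.97), the Fc receptor gamma chain, C1qc and Ddah1 (both 0.93), C1qa most like Actn1 (0.97), Anp32e and Grn (both 0.95), and Csf1r most like the endothelial cadherin gene Cdh5 (0.96), Mark2 and the protease gene Ctss (both 0.94).

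Of the other Kupffer cell identity genes, 10 were measured of 12 listed. Against normal liver 0 were called higher and 2 lower in rapamycin foci (6.53% of all genes called), 1 higher in placebo foci (8.22%), and 1 higher and 1 lower in AAF/PH liver (20.0%). The placebo and AAF/PH counts stand near these shares and are no result about the list. The genes had median log2 differences of -0.32, 0.01 and 0.11, against medians over all genes of 0.07, 0.04 and 0.12. Mrc1, the mannose receptor, which sinusoidal endothelium also carries, averaged 53.9 in rapamycin foci and 101 in normal liver (-0.90, adjusted p = 0.0116), and Fcna, a ficolin that activates complement, 59.7 and 97.2 (-0.70, adjusted p = 0.0143). Slc40a1, the iron exporter ferroportin, averaged 360 in placebo foci and 147 in normal liver (1.29, adjusted p = 0.0376), a call kept in 5 of 12 leave-outs. Adgre1, the F4/80 gene, averaged 52.3 in AAF/PH liver and 31.7 in normal liver (0.72, adjusted p = 0.0139). In rapamycin foci Adgre1 averaged 24.8, lower than in AAF/PH liver (-1.08, adjusted p = 0.00344). With 1 animal left out the number called lower in rapamycin foci ran from 0 to 3. The summed intensity of the 10 genes was 493 to 928 in rapamycin foci and 869 to 1074 in placebo foci, against 852 to 893 in normal liver, so that it was not lower in placebo foci and overlapped in rapamycin foci.

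Of the genes of recruited and lipid-associated macrophages, 11 were measured of 12 listed. Against normal liver 0 of them were called in rapamycin foci, where 6.53% of all genes were, 4 were called higher in placebo foci (8.22% of all genes called) and 7 higher in AAF/PH liver (20.0% of all genes called). Their median log2 differences were 0.42, 0.50 and 0.86, against 0.07, 0.04 and 0.12 over all genes, and in placebo foci 2 of the 11 lay below normal liver, the lowest at -0.64. Lgals3, galectin-3, averaged 212 in placebo foci (1.20, adjusted p = 0.0286) and 261 in AAF/PH liver (1.50, adjusted p = 0.00408), against 92.2 in normal liver. Gpnmb, a glycoprotein of lipid-laden macrophages, averaged 172 in placebo foci and 72.3 in normal liver (1.25, adjusted p = 0.0265). The tetraspanin gene Cd9 was higher in placebo foci (0.84, adjusted p = 0.0163) and in AAF/PH liver (1.04, adjusted p = 0.00209), and Fabp5 in placebo foci (0.78, adjusted p = 0.0204). These proteins are not limited to macrophages: biliary and altered epithelial cells can make galectin-3 and Cd9. The number called higher ran from 3 to 9 in AAF/PH liver and from 0 to 6 in placebo foci with 1 animal left out, so the placebo count rests on single animals. Between rapamycin foci and placebo foci 0 of the 11 were called, so the differing counts do not show that the foci groups differed. Mmp12 did not follow this list in every comparison. In placebo foci against AAF/PH liver Mmp12 was higher (1.34), while the 11 genes had a median of -0.27, with 3 above 0 and 8 below. Of the 11, 0 were called higher there and 1 lower (4.19% of all genes called). Which cells held the Mmp12 RNA was not tested. Against AAF/PH liver, Mmp14, a membrane protease that stromal cells also make, was lower in rapamycin foci and placebo foci (-1.19 and -1.22, adjusted p = 0.0120 and 0.0102), and Lyz2, lysozyme, in rapamycin foci (-1.98, adjusted p = 0.0221).

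Of 14 other general myeloid genes, 0 were called in rapamycin foci (6.53% of all genes called), 1 was higher in placebo foci (8.22%), and 4 were higher and 1 lower in AAF/PH liver (20.0%), each against normal liver, with medians of 0.06, 0.32 and 0.57. Cd14, the lipopolysaccharide co-receptor, was the one that was lower, at 61.3 in AAF/PH liver and 312 in normal liver (-2.35, adjusted p = 0.000986), a call kept in all 12 leave-outs. In foci it differed from normal liver by -1.17 in rapamycin animals and -1.30 in placebo animals (adjusted p = 0.0981 and 0.0667). C1qb, another C1q chain, was higher in AAF/PH liver (0.73, adjusted p = 0.0166), as were Cybb, an oxidase subunit of phagocytes (1.19, adjusted p = 0.0241), and Ptprc, the leukocyte antigen CD45 (0.87, adjusted p = 0.0313). Cd53, a leukocyte tetraspanin, was higher in placebo foci (0.81, adjusted p = 0.0272). With 1 animal left out the number called higher in AAF/PH liver ran from 0 to 8.

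Of 10 growth factors, chemokines and their receptors, Cx3cl1, the ligand of the monocyte receptor Cx3cr1, was higher than in normal liver in all groups (0.80 in rapamycin foci, 1.13 in placebo foci and 1.04 in AAF/PH liver, adjusted p = 0.0402, 0.00422 and 0.00347). The rapamycin call was kept in 5 of 12 leave-outs and the others in all. Csf2rb, the shared receptor chain for GM-CSF, was higher in AAF/PH liver (1.10, adjusted p = 0.00594), and 0 others were called against normal liver. The counts were thus 1 in rapamycin foci, 1 in placebo foci and 2 in AAF/PH liver. Of all genes 6.53%, 8.22% and 20.0% were called, so these counts stand near the shares and are no result about the list. Ccl4, a chemokine, was higher in rapamycin foci than in AAF/PH liver (1.01, adjusted p = 0.0311, kept in 6 of 12 leave-outs).

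**Figure D4:**
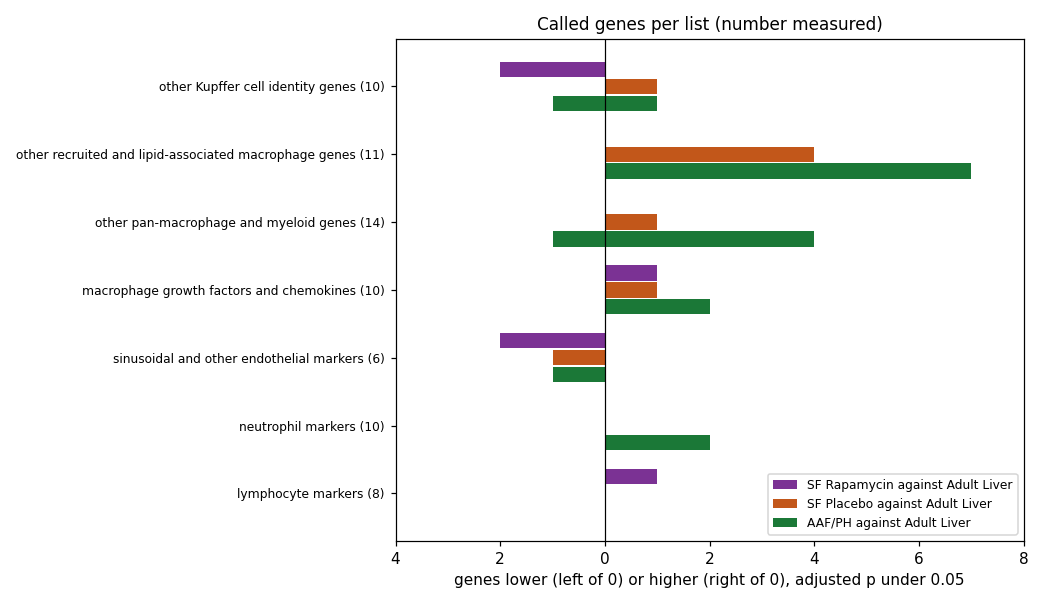
Number of measured genes of 7 lists called higher (right of 0) or lower (left of 0) relative to normal liver, for rapamycin foci, placebo foci and AAF/PH liver. Bars start at 0. Recruited macrophage genes show 7 higher in AAF/PH liver, 4 in placebo foci and 0 in rapamycin foci. Of all genes 20.0%, 8.22% and 6.53% were called in these comparisons. Between rapamycin and placebo foci 0 genes were called.

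Markers of other cells also differed between these groups; the shares of all genes called were 6.53% in rapamycin foci, 8.22% in placebo foci and 20.0% in AAF/PH liver against normal liver. The hepatocyte markers had 0 of 8 called in rapamycin foci, 3 lower in placebo foci and 6 lower in AAF/PH liver, with summed intensities of 20112 to 32297, 23818 to 28698 and 17043 to 20109, against 31877 to 35349 in normal liver. The biliary and oval cell markers had 2, 3 and 6 of 7 called higher, with sums of 218 to 426, 404 to 633 and 739 to 1304, against 157 to 195 in normal liver. The stellate cell and matrix markers had 0, 1 and 6 of 8 called higher, with sums of 543 to 782, 712 to 979 and 1508 to 4360, against 591 to 767. The sinusoidal and other endothelial markers had 2, 1 and 1 of 6 called lower, with sums of 309 to 555, 403 to 574 and 404 to 592, against 639 to 685. The vascular growth factor receptor gene Kdr was lower in rapamycin foci, placebo foci and AAF/PH liver alike (-0.96, -0.87 and -1.27, adjusted p = 0.0213, 0.0266 and 0.00119). Lcn2, a lipocalin of neutrophils that injured epithelium also makes, was higher in AAF/PH liver (1.96, adjusted p = 3.03e-05), and 2 of 10 neutrophil markers were called there and 0 in foci. These neutrophil counts, and the endothelial count in AAF/PH liver, stand near the shares and are no result about the lists. Of 7 dendritic cell markers 0 were called, and of 8 lymphocyte markers 1, Nkg7, was higher in rapamycin foci (0.81, adjusted p = 0.0457, kept in 2 of 12 leave-outs). No marker was at 0, since the lowest intensity on any array was 2.14. The part of these cells in the macrophage values was not tested.

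Over the 5 Kupffer cell genes the summed intensity was 220 to 297 in rapamycin foci, 267 to 323 in placebo foci, 390 to 583 in AAF/PH liver and 436 to 635 in normal liver. Both foci groups thus lay below the others without overlap, unlike the sum of the 10 other Kupffer cell identity genes given above. Against AAF/PH liver, however, Marco was the only one of the 5 genes that was called. There placebo foci differed by 0.04 for Clec4f, -0.02 for Vsig4, -0.24 for Cd163 and -0.92 for Cd5l. The separation of the sum from AAF/PH liver is therefore no result about the 5 genes as a set. Centring each animal on its median over probe sets lowered all differences from normal liver by 0.17 in rapamycin foci, 0.11 in placebo foci and 0.19 in AAF/PH liver. With it, the genes called higher made up 10.0%, 25.9% and 20.0% of all calls, against 24.5%, 34.6% and 37.7% as reported. The directions of the called macrophage genes were the same under both scalings tried.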

How the data were processed

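Expression was measured on 14 arrays of 12 rats. The table the authors deposited holds 28826 probe sets with linear intensity values between 2.14 and 14037.8, and the submitters' processing notes name Partek 6.6 and RMA without a role or order. Other upstream settings are not given in the sources used here. Although log2 values had been assumed when the tests were designed, the deposited intensity was linear, so it was converted to log2 without a pseudocount, and the 3 arrays from rapamycin animal 3 became 1 mean log2 value. A gene symbol was unique for 15209 probe sets, one of several for 306 and missing for 13311. For 494 genes with several probe sets the brightest was used. Tests used limma 3.58.1 under R 4.3.3 (lmFit, eBayes, 2-sided, group means of all 12 animals, 6 contrasts), with Benjamini-Hochberg adjustment over 14497 genes, after the fit had been tested on simulated data. Arrays have no depth, and their number limits the precision. Replicate numbers are not said to mark a shared animal, litter or day, so the samples were not paired. Deviations of the 18 same-numbered pairs of animals correlated at -0.68 to 0.38, and those of the 36 other pairs at -0.48 to 0.63. These ranges overlap and cannot show whether same-numbered animals shared a batch. The 9 genes and the lists were chosen with earlier results of these data known. Named genes were the 9, in each list up to 4 of smallest p for AAF/PH liver and for placebo foci against normal liver or called elsewhere, and the 3 genes most like each of the 9. Promoters came from RefSeq, assembly GRCr8. Alternatives changed the scaling, dim-gene filter, probe set rule, arrays of rapamycin animal 3, animals fitted, variance model, array weights and replicate block, and left out each animal.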

Additional observations from a re-analysis of the deposited data

How the results depend on the processing

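Over 23 alternatives none of the called differences of the 9 genes changed sign, and the calls of Marco in both foci groups against normal liver and AAF/PH liver, and of Mmp12 in placebo foci against both, were kept under all. Counts of the 9 genes called were less stable. In AAF/PH liver against normal liver (2 called) the count was 1 with centring, 4 with the pair of groups fitted alone, 6 with array quality weights, 1 with the replicate block and 0 to 4 with 1 animal left out. In placebo foci against normal liver (3) it was 6 with weights. In rapamycin foci against normal liver (5) it was 3 with quantile normalization, 2 with the groups alone and 2 to 5 with 1 animal left out. Against AAF/PH liver it was 4 with weights in placebo foci (2), and in rapamycin foci (1) it was 4 with quantile normalization, 4 with weights and 1 to 2 with 1 animal left out. Rapamycin against placebo foci (0) gave 1 with weights. Weights ran from 0.110 for rapamycin animal 3 to 4.03 for rapamycin animal 1, from the gene-by-gene method, since the default did not converge. The replicate block gave 1, 2, 4, 2, 1 and 0 members called in the order AAF/PH, placebo and rapamycin against normal liver, placebo and rapamycin against AAF/PH liver, and rapamycin against placebo foci, and 2279, 919, 555, 429, 418 and 0 of all genes, against 2900, 1192, 947, 608, 581 and 0 without it. It ended the calls of Mmp12 in AAF/PH liver (adjusted p = 0.0501), Vsig4 in placebo foci (0.0719) and Clec4f in rapamycin foci (0.0645) against normal liver. The numbers are not said to mark a shared animal, litter or day. Over all alternatives the counts over all genes ran, in that order, from 1552 to 6854, 606 to 5315, 210 to 4473, 330 to 1739, 204 to 3102 and 0 to 536. The cause of these shifts was not tested. With 3 animals a group and no detection calls, dim probe sets such as that of Mmp12 in normal liver carry unknown background.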
